A study of Homo sapiens with 11 samples.

Results

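Small nucleolar RNA host genes are transcribed as spliced, polyadenylated RNAs whose introns carry small nucleolar RNAs (snoRNAs). The 25 genes described here were taken by name from the 58735 Ensembl identifiers of the deposited count tables. A gene was taken when its GENCODE 29 symbol was SNHG followed by a digit, or was GAS5, ZFAS1 or EPB41L4A-AS1, and when at least 2 libraries held 1 or more of its counts. Of 28 identifiers with such a symbol, 3 did not meet the count rule. GENCODE types 10 of the 25 as processed transcripts, 7 as lincRNA, 6 as antisense, 1 as sense overlapping and 1, the identifier of SNHG28 kept here, as protein coding.

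The libraries were 11 poly(A) RNA libraries from AsPC-1 and PANC-1, both established human pancreatic cancer cell lines. AsPC-1 cells after transfection of small interfering RNA (siRNA) against MYEOV gave 3 libraries and AsPC-1 controls gave 2. PANC-1 cells after MYEOV siRNA gave 3 libraries and PANC-1 controls gave 3. Per the labels, RNA of transfected cells was prepared 48 hours after transfection with Lipofectamine. AsPC-1 was grown in RPMI 1640 and PANC-1 in DMEM, both with 10% fetal bovine serum, so line and medium cannot be told apart. Titles and descriptions call the controls WT and untreated, while the protocol also lists a negative-control siRNA. If the controls were untreated, MYEOV siRNA and transfection itself cannot be told apart. The protocol lists a pair of MYEOV siRNAs, and the numbers 1 to 3 in the titles may stand for replicates or for siRNAs. Whether the libraries of a group are separate cultures is not stated, and the p-values then reflect only how far these libraries differ, which can be technical.

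In a host gene, the introns are removed by splicing, opened by the debranching enzyme and trimmed to mature snoRNAs, which guide 2′-O-methylation (box C/D) or pseudouridylation (box H/ACA) of ribosomal and spliceosomal RNA. The spliced exons often have no conserved reading frame. Several host RNAs, GAS5 being the classic case, start with a terminal oligopyrimidine tract (5′ TOP) like ribosomal protein mRNAs, are engaged by ribosomes and are removed by nonsense-mediated decay. Poly(A) libraries read mainly the spliced exons, not the snoRNAs.

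Libraries held 12113093 to 15066456 counts, and the 25 host genes took 0.0521% to 0.0737% of them. Values are counts scaled to library size (CPM) with TMM factors over all 11 libraries. MYEOV, the siRNA target, had 42.9, 50.7 and 48.1 CPM in AsPC-1 siRNA libraries, against 130.8 and 129.5 CPM in AsPC-1 controls. In PANC-1, MYEOV had 37.6, 35.8 and 39.7 CPM with siRNA, against 74.99, 68.5 and 64.3 CPM in controls. The siRNA libraries lay below every control of their line. The keratins KRT8, KRT18 and KRT19 were at 394 CPM or more in all 11 libraries, and the acinar and endocrine genes CPA1, PRSS1, INS and GCG were at 0. The keratins were still higher in AsPC-1 controls than in PANC-1 controls, with log2 fold changes of 3.1 for KRT8, 2.6 for KRT18 and 2.5 for KRT19. Of the other epithelial genes, EPCAM and CDH1 were low in PANC-1, and MUC1 was not. EPCAM was at 937 to 1320 CPM in AsPC-1 and 4.82 to 7.92 CPM in PANC-1. CDH1 was at 86.5 to 112 CPM in AsPC-1 and 7.49 to 12.1 CPM in PANC-1. MUC1 went the other way, at 25 to 27.9 CPM in AsPC-1 and 28.2 to 37.5 CPM in PANC-1. Its log2 fold change, AsPC-1 controls over PANC-1 controls, was -0.36 (adjusted p = 0.00233, edgeR). The leukocyte genes PTPRC and CD3E reached at most 0.13 CPM. LYZ was at 27.2 to 30.2 CPM in AsPC-1, and COL1A1 at 29.4 to 42.7 CPM in PANC-1.

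Start windows from RefSeq (GRCh38.p14) were read for 20 of the 25 host genes. The windows below run from 45 bases before to 25 bases after the RefSeq start of the 6 host genes that differed with siRNA, followed by SNHG5 and ZFAS1, which have a pyrimidine tract at the start and did not pass the test. Capitals mark TATAA and, from the start itself, an unbroken pyrimidine run that begins with C and is at least 5 bases long.
SNHG19, chr16:2155334-2155403, minus strand: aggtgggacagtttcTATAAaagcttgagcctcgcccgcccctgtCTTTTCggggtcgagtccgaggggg
SNHG10, chr14:95534848-95534917, minus strand: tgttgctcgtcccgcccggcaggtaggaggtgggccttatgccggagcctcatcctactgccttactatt
SNHG4, chr5:139274056-139274125, plus strand: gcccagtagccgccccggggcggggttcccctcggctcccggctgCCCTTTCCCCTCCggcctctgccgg
SNHG3, chr1:28505898-28505967, plus strand: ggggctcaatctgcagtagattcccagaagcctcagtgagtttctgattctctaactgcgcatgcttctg
SNHG8, chr4:118278717-118278786, plus strand: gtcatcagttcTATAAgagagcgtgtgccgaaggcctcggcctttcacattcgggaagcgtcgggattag
SNHG1, chr11:62855861-62855930, minus strand: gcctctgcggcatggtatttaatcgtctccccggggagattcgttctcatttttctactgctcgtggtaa
SNHG5, chr6:85678709-85678778, minus strand: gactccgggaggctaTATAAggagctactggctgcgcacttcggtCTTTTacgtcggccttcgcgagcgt
ZFAS1, chr20:49278597-49278666, plus strand: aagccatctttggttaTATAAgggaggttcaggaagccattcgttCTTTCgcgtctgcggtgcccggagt
Such a pyrimidine start was present in 5 of 20 host genes (25%), namely SNHG12, SNHG19, SNHG4, SNHG5 and ZFAS1. It was present in 4.07% of 35116 RefSeq promoter windows and in 59.7% of the windows of 77 cytosolic ribosomal protein genes. The word TATAA, read on the transcribed strand within 45 bases before the start, was present in 6 of 20 host genes (30.0%) and in 4.52% of all windows. The 6 were SNHG12, SNHG19, SNHG5, SNHG7, SNHG8 and ZFAS1. On either strand TATAA was found in the same share of host genes and in 5.78% of all windows. The run was 13 bases long in SNHG4, 6 in SNHG19 and 5 in both SNHG5 and ZFAS1. The windows of SNHG10, SNHG3 and SNHG1 held neither mark. RefSeq and GENCODE 29 place the start at the same base in SNHG19 and SNHG10. The GENCODE start lay 1 base downstream of the RefSeq start in SNHG4 and 37 bases downstream in SNHG3, while the offset was -15 bases in SNHG5, -29 in SNHG1, -53 in SNHG8 and -464 in ZFAS1, that is, upstream. The GAS5 window held neither mark, and its RefSeq start lay 163 bases upstream of the GENCODE start. A match describes the annotated start, not the start used in these cells, which a count per gene does not show.

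Per kilobase of annotated exon, the highest level in AsPC-1 controls was that of SNHG1, at 30.5 CPM per kb, followed by GAS5 at 28.7, SNHG8 at 22.0 and SNHG6 at 21.6 CPM per kb. In PANC-1 controls SNHG6 was at 22.9, GAS5 at 22.8, SNHG1 at 22.1 and SNHG5 at 19.5 CPM per kb. SNHG1 and GAS5 were thus among the most abundant host RNAs per length in both lines. SNHG19 was short, with 342 exon bases, and reached 18.9 CPM per kb in AsPC-1 controls from 6.46 ± 0.128 CPM (SD, n = 2). Lengths are the union of all annotated exons, so a gene with many transcripts is placed low. SNHG22 and SNHG25 were below 1 CPM in the mean of every group, and no single values are given for them.

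**Figure D1:**
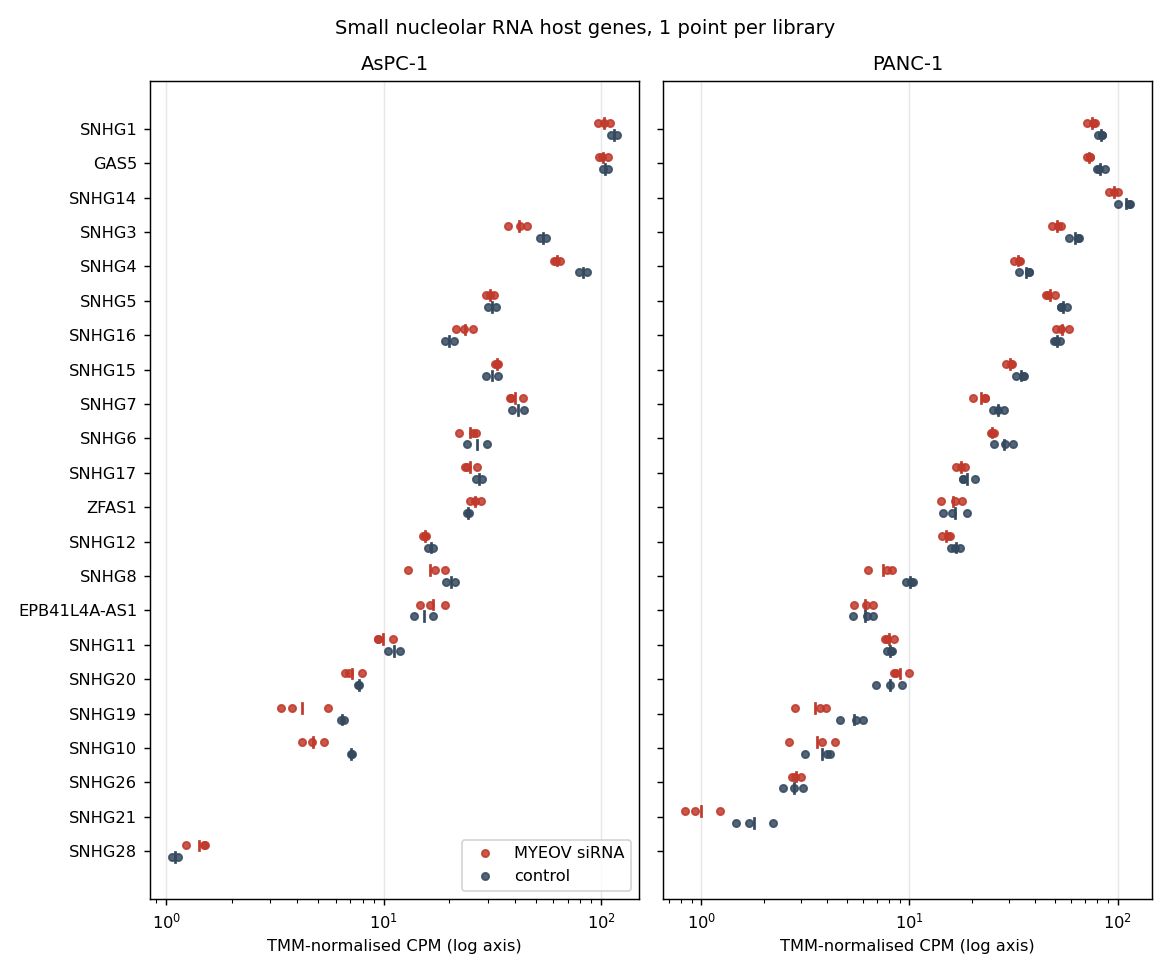
Level of each host gene at 1 CPM or more in the line, in TMM-scaled CPM on a log axis, with 1 point per library and a short vertical line at the group mean. SNHG1 averaged 103.4 CPM in AsPC-1 siRNA libraries and 114.5 CPM in AsPC-1 controls, and SNHG14 averaged 95.8 CPM in PANC-1 siRNA libraries and 109.6 CPM in PANC-1 controls.

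With MYEOV siRNA in AsPC-1, 6 host genes were lower than in controls and none was higher. They were SNHG19, SNHG10, SNHG4, SNHG3, SNHG8 and SNHG1, and their levels were 64.8% to 89.3% of the control level. As a share, 30% of the host genes tested were called, beside 32.9% of all genes tested. Counts from a whole culture cannot tell fewer expressing cells from less RNA per cell. GAS5, ZFAS1 and EPB41L4A-AS1 did not pass the test.

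The siRNA and control libraries of AsPC-1 were compared with edgeR's quasi-likelihood test, with Benjamini-Hochberg adjustment over all 14304 genes tested and a threshold of 0.05. The filter on low counts passed 20 of the 25 host genes. Of all genes tested, 32.9% passed the test in AsPC-1, 16.6% higher and 16.3% lower with siRNA. The share of host genes that passed, 6 of 20 or 30%, was near that background. By direction, 6 of 20 were lower and 0 of 20 higher, while over all genes both directions were about equally common. At an unadjusted p under 0.05, 1 host gene was higher and 6 were lower, beside 20.7% of all genes in each direction. DESeq2 called 0 higher and 2 lower, beside 13.9% of all genes higher and 12.4% lower, so under DESeq2 the share of host genes called lower was near the background. The median log2 fold change was -0.13 over the 20 host genes and -0.0024 over all genes tested, and 15 of the 20 were negative. In 7 of the 20 every siRNA library lay below both controls, in 3 every siRNA library lay above both, and in 10 the groups overlapped. This split was not counted over all genes tested, so it has no background to be read against. The members were chosen by name, and their median is a description without a test.

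SNHG4, on chromosome 5 (139274102 to 139284899, plus strand, GENCODE 29, GRCh38), is the host of the H/ACA snoRNAs SNORA74A and SNORA74D. It had 60.6, 61.9 and 64.7 CPM in AsPC-1 siRNA libraries, against 86.4 and 79.1 CPM in controls. Every siRNA library was below both controls, with a gap wider than the spread within either group. Its log2 fold change was -0.42 (SE 0.054, adjusted p = 8.99e-07, edgeR quasi-likelihood test). Exons of SNHG4 overlap those of SIL1 on the opposite strand and of MATR3 on the same strand. Whether reads were counted by strand is unknown here, so reads of opposite-strand genes cannot be told apart. SIL1 itself had a log2 fold change of 0.15 (adjusted p = 0.128, edgeR). How far the SNHG4 count holds reads of SIL1 or MATR3 was not tested.

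SNHG3, on chromosome 1 (28505980 to 28510892, plus strand), carries SNORA73A and SNORA73B, which take part in processing of the ribosomal RNA precursor. Its levels were 37.4, 45.5 and 42.2 CPM in AsPC-1 siRNA libraries and 55.6 and 52.5 CPM in controls. The groups did not overlap, and the log2 fold change was -0.39 (SE 0.070, adjusted p = 0.000105, edgeR). SNHG3 shares exon sequence with RCC1, its same-strand neighbour. How far the SNHG3 count holds reads of RCC1 was not tested. SNHG3 and SNHG4 passed the test in AsPC-1 under every alternative in which they were tested, including each fit without 1 library.

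SNHG10, on chromosome 14 (95532297 to 95534872, minus strand), is the host of SCARNA13, a guide RNA of the Cajal body. It had 4.68, 4.19 and 5.29 CPM with siRNA in AsPC-1, against 7.12 and 7.08 CPM in controls. Here too all siRNA libraries were lower, and the controls were close to each other, with a log2 fold change of -0.60 (SE 0.164, adjusted p = 0.00559, edgeR). SNHG10 exons overlap GLRX5 on the opposite strand, and GLRX5 was lower as well, with a log2 fold change of -0.44 (adjusted p = 2.28e-05, edgeR). How far either count holds reads of the other gene was not tested.

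SNHG19, on chromosome 16 (2154797 to 2155358, minus strand), holds the box C/D snoRNA SNORD60. It was at 5.52, 3.37 and 3.80 CPM in AsPC-1 siRNA libraries and at 6.37 and 6.55 CPM in controls. Its counts were 41 to 66 in siRNA libraries and 74 to 84 in controls. The siRNA libraries were lower, and replicate 1 among them was nearest to the controls. Its log2 fold change was -0.63 (SE 0.192, adjusted p = 0.0132, edgeR).

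SNHG8, on chromosome 4 (118278709 to 118279823, plus strand), is the host of SNORA24, an H/ACA guide RNA. It had 17.1, 19.1 and 13.0 CPM with siRNA in AsPC-1, against 21.2 and 19.4 CPM in controls. The highest siRNA library was just under the lower control. The log2 fold change was -0.33 (SE 0.117, adjusted p = 0.0327, edgeR).

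SNHG1, on chromosome 11 (62851988 to 62855914, minus strand), holds 7 snoRNA genes, among them SNORD22 and SNORD25 to SNORD28. It had 103.1, 97.0 and 110.2 CPM in AsPC-1 siRNA libraries, against 118.1 and 111.0 CPM in controls. The groups did not overlap, but siRNA replicate 3 and control replicate 2 were nearly equal. The log2 fold change was -0.16 (SE 0.051, adjusted p = 0.0147, edgeR). The calls of SNHG19, SNHG8 and SNHG1 each depended on single libraries, and without control replicate 1 the adjusted p (edgeR) was 0.0698 for SNHG19, 0.265 for SNHG8 and 0.221 for SNHG1. It was also over the threshold for SNHG19 without control replicate 2 (0.0876) or siRNA replicate 2 (0.0793), for SNHG8 without control replicate 2 (0.0829) or siRNA replicate 3 (0.208), and for SNHG1 without siRNA replicate 2 (0.0965).

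GAS5, on chromosome 1 (173863900 to 173868882, minus strand), is named for its rise in growth-arrested cells. It had 98.0, 100.7 and 107.3 CPM in AsPC-1 siRNA libraries and 107.1 and 101.6 CPM in controls. The groups overlapped, and the log2 fold change was -0.05 (SE 0.049, adjusted p = 0.487, edgeR). ZFAS1, on chromosome 20 (49278178 to 49295738, plus strand), holds the SNORD12 snoRNAs. Its levels were 24.8, 27.9 and 26.2 CPM with siRNA and 24.7 and 24.2 CPM in controls. The siRNA libraries were all slightly higher, with a log2 fold change of 0.09 (SE 0.083) that did not pass the test (adjusted p = 0.448, edgeR). EPB41L4A-AS1, on chromosome 5 (112160526 to 112164276, plus strand) and host of SNORA13, had 19.2, 16.3 and 14.7 CPM with siRNA and 16.8 and 13.7 CPM in controls. Its groups overlapped, with a log2 fold change of 0.11 (SE 0.116, adjusted p = 0.515, edgeR). Over the 13 host genes at 1 CPM or more that did not pass, log2 fold changes ran from -0.19 to 0.34 and adjusted p from 0.0894 to 0.757.

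With MYEOV siRNA in PANC-1, SNHG19, SNHG8 and SNHG3 were lower than in controls and no host gene was higher. These 3 are among the 6 that were lower in AsPC-1. Of 22 host genes that passed the filter, 3 were called lower and 0 higher, beside 9.08% of all 14929 genes called in PANC-1, 4.92% lower and 4.16% higher. At an unadjusted p under 0.05, 11 host genes were lower and 0 higher, beside 11.9% of all genes lower and 11.6% higher. DESeq2 called 1 lower and 0 higher, beside 5.23% lower and 4.75% higher, so under DESeq2 the share called lower was again near the background. The median log2 fold change was -0.16 over the 22 host genes and -0.0014 over all genes tested. Negative values were found in 18 of the 22. In 11 every siRNA library lay below every control, in none did every siRNA library lie above, and in 11 the groups overlapped. As in AsPC-1, the share of all genes tested without overlap was not counted, so these counts describe the host genes only.

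SNHG3 had 51.6, 53.6 and 48.6 CPM in PANC-1 siRNA libraries, against 64.3, 58.6 and 65.0 CPM in controls. The groups did not overlap, and every siRNA library was lower. Its log2 fold change was -0.29 (SE 0.066, adjusted p = 0.0148, edgeR). SNHG8 was at 6.31, 8.27 and 7.84 CPM with siRNA and at 10.4, 9.60 and 10.2 CPM in controls. All siRNA libraries were lower, and replicate 1 was the lowest. Its log2 fold change was -0.44 (SE 0.124, adjusted p = 0.0397, edgeR). SNHG19 had 3.98, 2.80 and 3.73 CPM with siRNA and 5.99, 4.62 and 5.55 CPM in controls. Its groups did not overlap either, and the log2 fold change was -0.62 (SE 0.173, adjusted p = 0.0397, edgeR).

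The PANC-1 calls depended on single libraries. The count of host genes called was 0 without control replicate 3, without siRNA replicate 1 or without siRNA replicate 3. It was 1 without control replicate 1, when SNHG14 alone was called, 2 without siRNA replicate 2 and 7 without control replicate 2. No host gene called with all libraries changed sign in these fits.

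The other named host RNAs did not pass the test in PANC-1. GAS5 had 73.7, 73.9 and 71.1 CPM with siRNA, against 86.9, 81.2 and 79.7 CPM in controls. Its siRNA libraries were all lower, with a log2 fold change of -0.18 (SE 0.058, adjusted p = 0.0699, edgeR). SNHG1 was at 76.3, 78.3 and 71.5 CPM with siRNA and 80.5, 84.0 and 84.6 CPM in controls, again without overlap, with a log2 fold change of -0.14 (SE 0.058, adjusted p = 0.162, edgeR). SNHG4 had 34.1, 33.7 and 31.8 CPM with siRNA and 33.7, 37.5 and 37.3 CPM in controls. In SNHG4 the groups overlapped through control replicate 1, and the log2 fold change was -0.12 (SE 0.073, adjusted p = 0.346, edgeR). SNHG10 gave 2.63, 4.38 and 3.81 CPM with siRNA and 4.04, 3.15 and 4.16 CPM in controls, with wide overlap, a log2 fold change of -0.09 (SE 0.203) and an adjusted p of 0.844 (edgeR). ZFAS1 had 16.5, 17.9 and 14.2 CPM with siRNA and 14.5, 16.1 and 18.98 CPM in controls, and EPB41L4A-AS1 had 6.19, 6.69 and 5.40 CPM with siRNA and 6.25, 6.67 and 5.36 CPM in controls. Both overlapped fully, with log2 fold changes of -0.03 and 0.01 and adjusted p of 0.913 and 0.987 (edgeR). Over the 18 host genes at 1 CPM or more that did not pass in PANC-1, log2 fold changes ran from -0.83 to 0.15. The largest of these belonged to SNHG21, host of SCARNA15, with 1.23, 0.93 and 0.84 CPM in siRNA libraries and 2.21, 1.47 and 1.70 CPM in controls (SE 0.275, adjusted p = 0.078, edgeR).

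**Figure D2:**
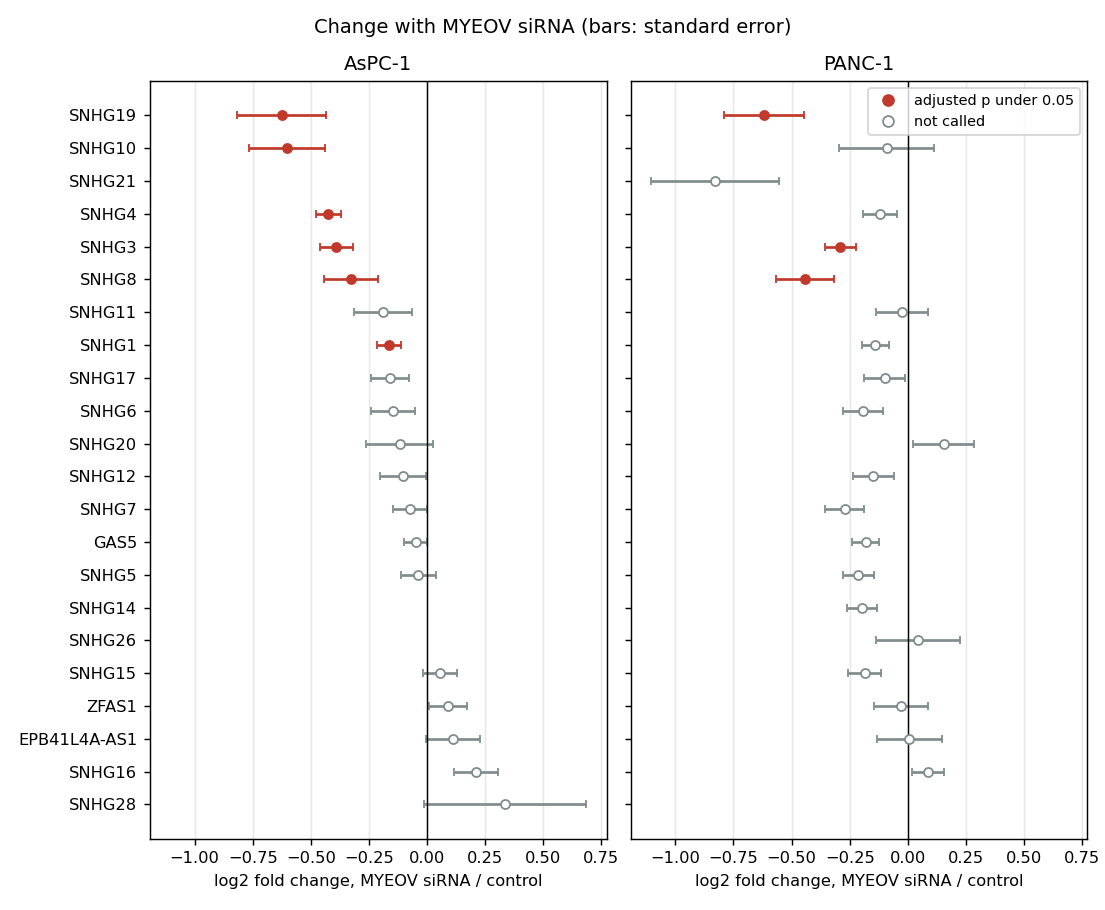
Log2 fold change of each host gene at 1 CPM or more in the line, MYEOV siRNA over control, with bars for the standard error, in AsPC-1 (3 against 2 libraries) and in PANC-1 (3 against 3). Filled points passed edgeR's test at an adjusted p of 0.05, and 6 did in AsPC-1 and 3 in PANC-1, all of them below 0. Of all genes tested, 32.9% passed in AsPC-1 and 9.08% in PANC-1.

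Both lines could be set side by side for 18 host genes at 1 CPM or more. The log2 fold change was negative in both lines for 13, positive in both for 2 and opposite for 3. SNHG1, SNHG12, SNHG19, SNHG3 and SNHG8 had every siRNA library below every control in both lines. Shared signs and shared lack of overlap were not counted over all genes, so no background share stands beside them. Other long noncoding genes leaned negative too, with 520 of 1396 positive in AsPC-1 and 606 of 1398 in PANC-1. The difference in siRNA response between the lines, AsPC-1 minus PANC-1, was tested as an interaction in 1 edgeR fit over all 11 libraries. No host gene of 23 tested passed, beside 4.36% of all 16680 genes tested. At an unadjusted p under 0.05, 1 host gene responded more positively in AsPC-1 and 1 more negatively, beside 9.53% and 7.34% of all genes. DESeq2 called 0 host genes, beside 2.53% of all genes more positive and 2.69% more negative. The nearest to the threshold was SNHG4, whose log2 fold changes differed by -0.29 (SE 0.095, adjusted p = 0.0955, edgeR). SNHG10, with -0.60 in AsPC-1 and -0.09 in PANC-1, differed by -0.50 with an SE of 0.265 (adjusted p = 0.362, edgeR). A call in AsPC-1 alone was thus not shown to differ from PANC-1 for SNHG4, SNHG10 or SNHG1.

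Summed over the 25 host genes, the level was 590.6 ± 9.41 CPM in AsPC-1 siRNA libraries (SD, n = 3) and 646.1 ± 33.2 CPM in AsPC-1 controls (SD, n = 2). In PANC-1 the sum was 599.5 ± 14.8 CPM with siRNA and 669.3 ± 8.58 CPM in controls (SD, n = 3 each). Every siRNA library had a lower sum than every control of its line, with 600.3 CPM as the highest siRNA library and 622.6 CPM as the lowest control in AsPC-1. In PANC-1 these were 616.6 and 659.6 CPM. The 3 most abundant host genes of a library made up 44% to 47% of the sum in AsPC-1 and 39.9% to 42.5% in PANC-1. The sum thus rests largely on a few genes.

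Between the lines, control libraries differed in most host genes. In AsPC-1 controls 11 of 23 tested were higher and 7 lower than in PANC-1 controls. Of all 16182 genes tested between the lines, 76.4% passed, 36.1% higher and 40.3% lower in AsPC-1. The host genes' share of 18 of 23 was therefore near the background. Their median log2 fold change, AsPC-1 over PANC-1, was 0.28, beside -0.059 over all genes.

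SNHG14 showed the widest gap between the lines. It spans positions 24978583 to 25419462 of chromosome 15 (plus strand) in the imprinted region of Prader-Willi and Angelman syndromes, holds 84 annotated snoRNA genes, nearly all SNORD115 and SNORD116 copies, and runs across UBE3A on the opposite strand. The AsPC-1 controls had 1 and 2 counts of SNHG14, and the PANC-1 controls had 1547, 1569 and 1795. The 3 AsPC-1 counts against 4911 PANC-1 counts gave a ratio of 894, PANC-1 over AsPC-1, with an exact 95% interval of 306 to 4340 that covers counting error only. In CPM, PANC-1 controls were at 100.7, 115.0 and 113.2 and AsPC-1 controls at 0.076 and 0.177, so no library was near the other line. UBE3A was at a log2 fold change of -0.37 between the lines (adjusted p = 0.00132, edgeR). SNHG14 also shares exon sequence with SNRPN on the same strand. In PANC-1 itself SNHG14 had 91.0, 96.0 and 100.5 CPM with siRNA, below all 3 controls, with a log2 fold change of -0.20 (SE 0.064, adjusted p = 0.0758, edgeR). Without SNHG14, the summed level was 590.5 ± 9.41 CPM in AsPC-1 siRNA libraries and 646.0 ± 33.3 CPM in AsPC-1 controls, against 503.6 ± 15.5 CPM in PANC-1 siRNA libraries and 559.7 ± 13.9 CPM in PANC-1 controls.

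The largest excess in AsPC-1 among host genes at 1 CPM or more was that of EPB41L4A-AS1, with 16.8 and 13.7 CPM in AsPC-1 controls and 6.25, 6.67 and 5.36 CPM in PANC-1 controls. The log2 fold change was 1.36 (SE 0.144, adjusted p = 5.25e-07, edgeR). EPB41L4A, which overlaps it on the opposite strand, was below 1 CPM on average. SNHG4 had 86.4 and 79.1 CPM in AsPC-1 controls, above the 33.7, 37.5 and 37.3 CPM of PANC-1 controls, with a log2 fold change of 1.22 (SE 0.079, adjusted p = 1.61e-09, edgeR). SNHG8 had 21.2 and 19.4 CPM in AsPC-1 controls and 10.4, 9.60 and 10.2 CPM in PANC-1 controls, with a log2 fold change of 1.03 (SE 0.112, adjusted p = 6.31e-07, edgeR). SNHG10, at 7.12 and 7.08 CPM in AsPC-1 controls and 4.04, 3.15 and 4.16 CPM in PANC-1 controls, had a log2 fold change of 0.92 (SE 0.176, adjusted p = 0.000217, edgeR). None of these 4 overlapped between the lines. SNHG7, ZFAS1, SNHG17, SNHG11, SNHG1 and GAS5 were also higher in AsPC-1, with log2 fold changes from 0.66 for SNHG7 to 0.36 for GAS5.

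Besides SNHG14, the host genes at 1 CPM or more that were furthest below PANC-1 were SNHG26, SNHG16 and SNHG21. SNHG9, called lower, and SNHG28, called higher, were below 1 CPM on average, and no single values are given for them. SNHG26, host of SNORD93, had 0.303 and 0.177 CPM in AsPC-1 controls and 2.80, 3.08 and 2.46 CPM in PANC-1 controls. These are 4 and 2 counts against 43, 42 and 39 counts, with a log2 fold change of -3.43 (SE 0.412, adjusted p = 2.05e-06, edgeR). SNHG16, host of the SNORD1 snoRNAs, was at 21.1 and 19.02 CPM in AsPC-1 controls and at 50.8, 49.5 and 52.6 CPM in PANC-1 controls, with a log2 fold change of -1.32 (SE 0.090, adjusted p = 2.79e-09, edgeR). SNHG21 had 0.985 and 1.06 CPM in AsPC-1 controls and 2.21, 1.47 and 1.70 CPM in PANC-1 controls, with a log2 fold change of -0.79 (SE 0.334, adjusted p = 0.0428, edgeR). The lines did not overlap in these either, although SNHG21 was called at a p near the threshold. SNHG5, with a log2 fold change of -0.78, and SNHG3, with -0.19, were lower in AsPC-1 as well. SNHG3 was not called with RLE scaling or DESeq2, nor SNHG21 with DESeq2 or without the low-count filter. The adjusted p of SNHG3 (edgeR) became 0.0844 and 0.257 on leaving out replicates 1 and 2 of the AsPC-1 controls, and 0.0645 and 0.0972 on leaving out replicates 1 and 3 of the PANC-1 controls. That of SNHG21 (edgeR) became 0.171 and 0.109 on leaving out replicates 1 and 2 of the AsPC-1 controls, and 0.117 on leaving out replicate 1 of the PANC-1 controls. SNHG11, higher in AsPC-1, had an adjusted p (edgeR) of 0.0646 without AsPC-1 control replicate 1. SNHG12, SNHG15, SNHG19, SNHG20 and SNHG6 did not pass between the lines, with log2 fold changes from -0.11 to 0.28.

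**Figure D3:**
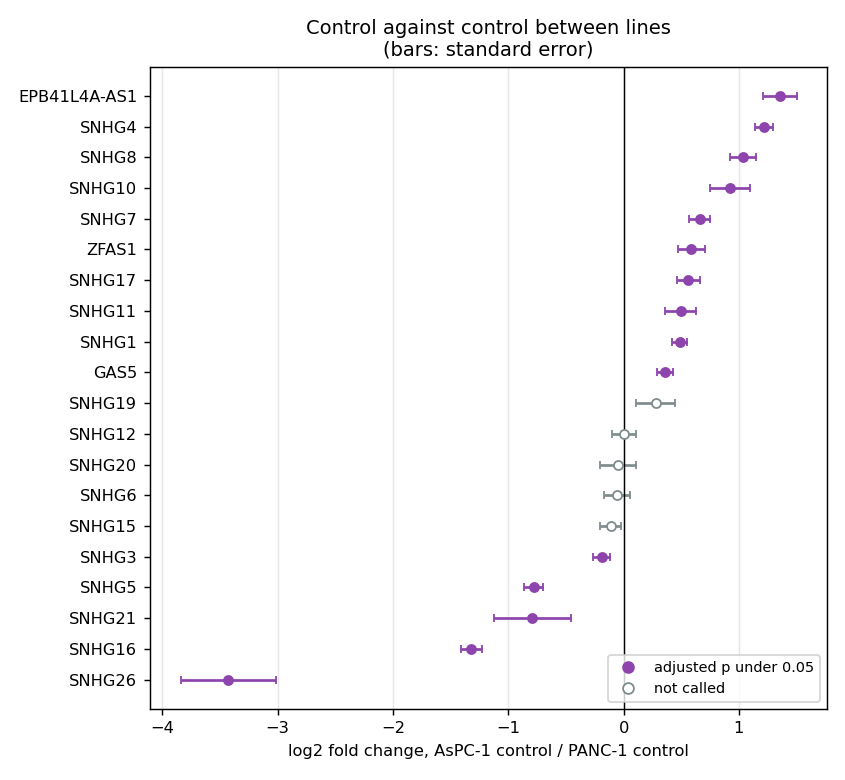
Log2 fold change of each host gene between the lines, AsPC-1 controls (n = 2) over PANC-1 controls (n = 3), with bars for the standard error and SNHG14 left out. Filled points passed edgeR's test at an adjusted p of 0.05, from EPB41L4A-AS1 at 1.36 at the top to SNHG26 at -3.43 at the bottom.

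Other classes of gene were set beside the host genes by counts and medians only. Of 1396 other long noncoding genes tested in AsPC-1, 50 were higher and 140 lower with siRNA, with a median log2 fold change of -0.13. In PANC-1 14 were higher and 19 lower of 1398, with a median of -0.051. The median of the host genes in AsPC-1, -0.13, was thus close to that of other long noncoding genes. Protein-coding genes with a snoRNA inside them had 72 higher and 29 lower of 216 in AsPC-1 (median 0.051) and 9 higher and 10 lower of 221 in PANC-1 (median 0.0041). Among other long noncoding genes with a snoRNA, 1 was higher and 1 lower of 11 in AsPC-1, and 0 higher and 1 lower of 13 in PANC-1. DANCR was the lower one in both lines, with log2 fold changes of -0.47 (adjusted p = 0.000175) and -0.39 (adjusted p = 0.0487) in AsPC-1 and PANC-1 (edgeR), and LRRC75A-AS1 was the higher one in AsPC-1, at 0.26 (adjusted p = 3.81e-06, edgeR). In PANC-1 DESeq2 called 0 of the 13, so DANCR was called there by edgeR alone. These comparisons were not tested against each other.

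Ribosomal protein mRNAs share the pyrimidine start with some host RNAs. In AsPC-1, 60 of 77 cytosolic ribosomal protein genes were higher with siRNA and 0 lower, with a median log2 fold change of 0.14. In PANC-1 edgeR called 0 of 77 in either direction, with 1 higher and 3 lower at an unadjusted p under 0.05, none called by DESeq2, and a median of -0.0059. The difference in response between the lines was called for 13 of the 77, all more positive in AsPC-1. Of the other TOP mRNAs, which encode translation factors and similar proteins, 12 were higher and 2 lower of 16 in AsPC-1 (median 0.15), and 0 were higher and 1 lower of 16 in PANC-1. Among the 5 host genes with a pyrimidine start, SNHG4 and SNHG19 were lower in AsPC-1, and SNHG12, SNHG5 and ZFAS1 did not pass.

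The snoRNA machinery was measured as mRNA. Of the box C/D core proteins, the methyltransferase FBL was higher in AsPC-1 at a log2 fold change of 0.21 (adjusted p = 0.000687) and its partner NOP56 at 0.10 (adjusted p = 0.0475, edgeR). With DESeq2 only 1 of the 4 was called higher in AsPC-1. NOP58 and SNU13 did not pass there, and in PANC-1 edgeR called 0 of the 4, with 1 lower at an unadjusted p under 0.05 and 0 called by DESeq2. None of the 4 box H/ACA proteins was called in either line by edgeR or DESeq2, with 0 in AsPC-1 and 2 lower in PANC-1 at an unadjusted p under 0.05. Of 12 assembly factors, 2 were higher and 4 lower in AsPC-1 and 0 higher and 2 lower in PANC-1 (edgeR). Under DESeq2 these counts were 1 higher and 2 lower in AsPC-1 and 0 higher and 1 lower in PANC-1. ZNHIT6, which is needed for box C/D assembly, was lower in both lines, at a log2 fold change of -1.01 in AsPC-1 (adjusted p = 4.73e-10) and -0.94 in PANC-1 (adjusted p = 5.05e-06, edgeR). ZNHIT3, a second zinc-finger factor of that pathway, was lower at -0.59 (adjusted p = 7.02e-05) and -0.46 (adjusted p = 0.0313, edgeR) in the same lines. NUFIP1, a further assembly factor, was lower in AsPC-1 at -0.37 (adjusted p = 0.00716, edgeR). In PANC-1 NUFIP1 was at -0.32 and did not pass (adjusted p = 0.123), without a called difference in response (adjusted p = 0.985, edgeR).

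Host RNAs are known decay substrates, and decay and splicing genes were measured beside them. None of 12 nonsense-mediated decay factors, among them UPF1 and SMG1, was called in either line by edgeR or DESeq2, with 2 higher in AsPC-1 and 0 in PANC-1 at an unadjusted p under 0.05. Of 7 exon junction genes, 2 were higher (CASC3 and RNPS1) and 2 lower in AsPC-1, and 0 higher and 1 lower in PANC-1. With DESeq2 1 exon junction gene was lower in AsPC-1, and the other counts were the same. RBM8A, a core subunit, was among the lower ones in both lines, at -0.37 in AsPC-1 (adjusted p = 2.06e-05) and -0.24 in PANC-1 (adjusted p = 0.0172, edgeR). Of 7 lariat turnover genes, 1 was higher and 2 lower in AsPC-1, and 0 higher and 1 lower in PANC-1. The debranching enzyme DBR1 was lower in AsPC-1 at -0.52 (adjusted p = 0.000178, edgeR). In PANC-1 DBR1 was at -0.28 and did not pass (adjusted p = 0.0814), and its response was not shown to differ between the lines (adjusted p = 0.432, edgeR). The exonuclease XRN1 was lower in both lines, at -0.31 in AsPC-1 (adjusted p = 0.00286) and -0.27 in PANC-1 (adjusted p = 0.0342, edgeR). The exosome nuclease DIS3 was the higher one in AsPC-1, at 0.20 (adjusted p = 0.00321, edgeR). In PANC-1 DIS3 was at 0.17 and did not pass (adjusted p = 0.114), without a called difference in response (adjusted p = 0.891, edgeR). Of 10 mRNAs known as decay targets, 1 was higher and 3 lower in AsPC-1, and 0 were higher and 2 lower in PANC-1. The gene higher in AsPC-1 was GADD45A, a stress-induced growth arrest gene, at 0.49 (adjusted p = 0.0012, edgeR), which did not pass in PANC-1 at 0.22 (adjusted p = 0.129, edgeR). ATF4 was lower in AsPC-1 at -0.15 (adjusted p = 0.00303, edgeR). SRSF2 and SRSF6, splicing factors with decay-sensitive isoforms, were lower in both lines, SRSF2 at -0.17 in AsPC-1 (adjusted p = 0.00264) and -0.27 in PANC-1 (adjusted p = 0.00497, edgeR). SRSF6 was at -0.11 in AsPC-1 (adjusted p = 0.0127) and -0.19 in PANC-1 (adjusted p = 0.0492, edgeR).

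**Figure D4:**
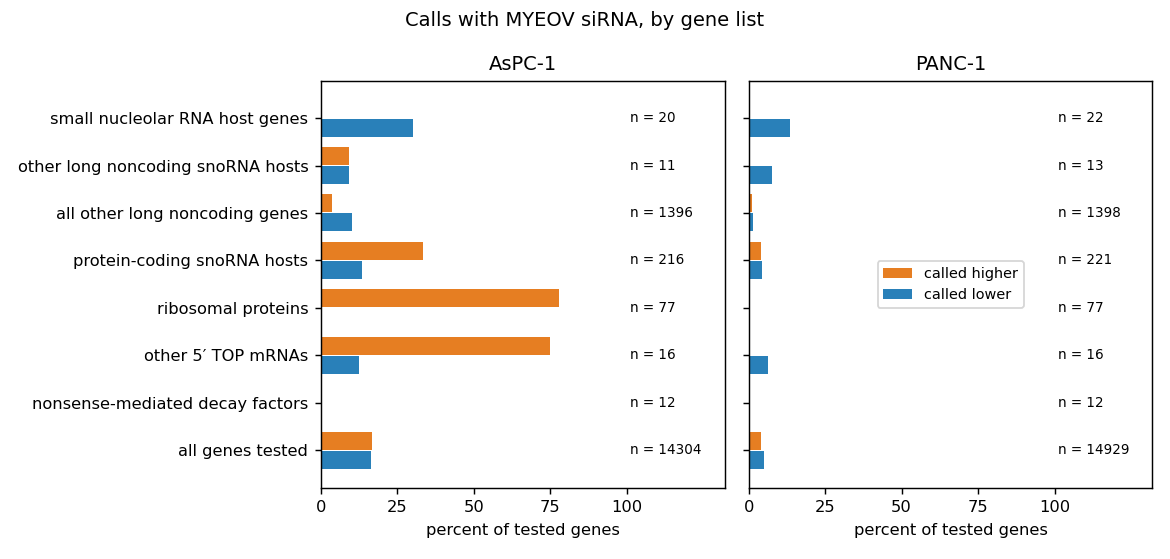
Percent of tested genes called higher or lower with MYEOV siRNA in AsPC-1 and PANC-1, for the host genes, other gene lists and all genes tested, with the number tested beside each bar. In AsPC-1, 60 of 77 ribosomal protein genes were called higher and none lower, while 6 of 20 host genes were called lower and none higher. Of all genes tested in AsPC-1, 16.6% were called higher and 16.3% lower.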

How the data were processed

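RNA of 11 libraries from AsPC-1 and PANC-1 was measured by poly(A) sequencing, as 150-base paired reads on a HiSeq instrument per the labels' protocols. HISAT2, HTSeq and the build hg19 are listed in the submitters' processing notes, without versions. What the authors deposited are raw counts per gene, whole numbers without normalization, in 1 table per library. All 58735 identifiers occur in GENCODE release 29 (Ensembl 94, GRCh38), which gave names and positions; no coordinate came from the tables. The tables held 0 rows that name no gene. No source used here states whether counting was by strand.

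Groups came from the sample titles. A chi-square test found every replicate pair to differ by more than counting noise, so none was treated as a duplicate. From the deposited counts, each comparison was fitted on the libraries it compares (edgeR 4.0.16, R 4.3.3, filterByExpr, TMM, glmQLFit, glmQLFTest, two-sided, Benjamini-Hochberg over all genes tested, threshold 0.05), and the difference in response in 1 fit over all 4 groups. Standard errors are the size of the log2 fold change over the square root of F. The fits were also run on counts simulated with the spread that each fit had estimated. Such counts cannot show whether the libraries of a group are separate cultures. Depths of 12113093 to 15066456 counts give a gene at 1 CPM about 12 to 15 counts, so single-gene values were given only where the mean over the compared libraries was 1 CPM or more. Host genes had to hold 1 count in at least 2 libraries. The interval of a ratio is exact, at 95%, and covers counting error only.

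Full values were given for GAS5, ZFAS1, EPB41L4A-AS1, SNHG1 and each host gene called with siRNA or in the interaction, and between lines for the 4 largest differences in each direction; of other lists, up to 3 called genes at 1 CPM or more with the largest changes, with NORAD and SRSF6 in AsPC-1 added because they were called in both lines, and TOP mRNAs, ribosomal proteins and protein-coding snoRNA hosts given by counts alone. SIL1, UBE3A, SNHG14 and SNHG21 in PANC-1, and the non-called genes of the figures, were named after their values were seen. Members and lists were chosen with earlier results of these data known. Lists were box C/D and H/ACA proteins, assembly factors (1 of 13 not tested), decay factors, exon junction, lariat turnover, decay targets, TOP mRNAs, ribosomal proteins, abundant long noncoding RNAs, snoRNA hosts and snoRNA genes by annotation, and cell type markers. The promoter windows are RefSeq's, 250 bases before to 50 after each start. Alternatives were upper-quartile or RLE scaling, a filter of 5 CPM or none, 1 fit over all groups, DESeq2 1.42.0, a replicate block, mitochondrial genes left out, each library left out in turn and, added after seeing the data, only host genes whose exons overlap no other gene. Sequences and figures were handled in Python 3.11.15 (matplotlib 3.10.9).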

Additional observations from a re-analysis of the deposited data

How the results depend on the processing

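No called host gene changed sign under any alternative, and RLE scaling, upper-quartile scaling and leaving out mitochondrial genes kept the 6 AsPC-1 and 3 PANC-1 calls. With DESeq2 the counts were 2 in AsPC-1 and 1 in PANC-1. One fit over all groups gave 6 in PANC-1, adding GAS5, SNHG5 and SNHG7, and a median in AsPC-1 of -0.10. Among host genes whose exons overlap no other gene, an alternative chosen after seeing the data, 3 of 7 were called in AsPC-1, 2 of 9 in PANC-1 and 7 of 9 between the lines. Of all genes tested, 32.9%, 9.08% and 76.4% were called in the same comparisons, so the share between the lines was near the background. The host genes without overlap called with siRNA were SNHG19, SNHG8 and SNHG1 in AsPC-1 and SNHG19 and SNHG8 in PANC-1. These calls depended on single libraries. SNHG3, SNHG4 and SNHG10 stayed called in AsPC-1 without any 1 library, but their exons overlap other genes. Leaving out 1 library gave 3 to 7 calls in AsPC-1, 0 to 7 in PANC-1, 14 to 18 between the lines and 0 to 1 for the difference in response, where SNHG4 was called without PANC-1 control replicate 2. The median ran from -0.17 to -0.10 in AsPC-1, from -0.19 to -0.15 in PANC-1 and from 0.17 to 0.35 between the lines in these fits. The median between the lines was 0.19 with upper-quartile scaling and 0.35 with a filter of 5 CPM. The cause of these shifts was not tested, except that some fits hold fewer libraries or genes. Among the genes called with siRNA, SNHG19 had 39 to 92 counts per library. Same-numbered libraries did not deviate together, with correlations of -0.023 and -0.014 in AsPC-1 and -0.020, -0.36 and -0.092 in PANC-1 over 11300 genes, while some PANC-1 pairs with unlike numbers reached 0.33, so the numbers do not pair the samples. With the replicate number as a block, host genes called were 4 in AsPC-1, 0 in PANC-1 (SNHG19, SNHG8 and SNHG3 were lost, with log2 fold changes of -0.62, -0.44 and -0.29), 16 between the lines and 0 for the difference in response, and all genes called in PANC-1 were 628 against 1356 without it.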

Other observations

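Within the 25 host genes GENCODE 29 annotates 135 snoRNA and small Cajal body RNA genes, 84 of them in SNHG14. No snoRNA gene is annotated there inside GAS5, although GAS5 is a known snoRNA host. Few counts fell on them, as poly(A) libraries read few snoRNAs: the 135 genes together had 61 to 82 counts per library in AsPC-1 with siRNA and 76 to 79 in AsPC-1 controls, and 76 to 103 in PANC-1 with siRNA and 108 to 120 in PANC-1 controls. The low-count filter passed 3 of them in AsPC-1 and 1 in PANC-1. None was called by edgeR or DESeq2, with 0 in AsPC-1 and 1 lower in PANC-1 at an unadjusted p under 0.05. The snoRNA output of a host gene is therefore not measured by these libraries.

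By library, the median difference of the host genes from their line's control mean, on the scale of log2(CPM + 0.5), was -0.086, -0.057 and -0.11 in the AsPC-1 siRNA libraries and 0.043 and -0.043 in the AsPC-1 controls. In PANC-1 it was -0.18, -0.11 and -0.18 in siRNA libraries and 0.047, -0.035 and 0.012 in controls. All 6 siRNA libraries were thus below every control of their line by this measure, by a narrow margin in AsPC-1. The controls set the mean they are measured from, so they lie around it by construction.

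Genes that overlap a host gene on the opposite strand were called as follows. Of 11 tested in AsPC-1, 1 was higher and 2 lower, and of 9 tested in PANC-1, 1 was higher and 1 lower (edgeR). Under DESeq2 1 was higher and 1 lower in AsPC-1, and 1 higher and 0 lower in PANC-1. ZNFX1, an antiviral helicase opposite ZFAS1, was higher with siRNA in both lines, at a log2 fold change of 0.22 in AsPC-1 (adjusted p = 0.000234) and 0.36 in PANC-1 (adjusted p = 0.000845, edgeR), while ZFAS1 did not pass in either. TRNAU1AP, opposite SNHG12, was lower in PANC-1 at -0.30 (adjusted p = 0.0463, edgeR), where SNHG12 did not pass. Of the abundant long noncoding RNAs taken as a list, 1 of 10 tested was higher and 4 lower in AsPC-1, and 2 of 12 were higher and 3 lower in PANC-1. For this list DESeq2 called 1 higher and 3 lower in AsPC-1, and 2 higher and 1 lower in PANC-1. NORAD, a sink for Pumilio proteins, was higher in both lines, at 0.25 in AsPC-1 (adjusted p = 4.24e-07) and 0.43 in PANC-1 (adjusted p = 0.000271, edgeR). NEAT1, the scaffold of paraspeckles, was lower in AsPC-1 at -0.32 (adjusted p = 5.07e-07, edgeR), and its response differed from that in PANC-1 by -0.27 (adjusted p = 0.0413, edgeR). MALAT1 was lower in AsPC-1 at -0.25 (adjusted p = 0.00291, edgeR). In PANC-1 the imprinted RNAs H19 and MEG3 were lower, H19 at -2.13 (SE 0.547, adjusted p = 0.0266) and MEG3 at -0.41 (adjusted p = 9.59e-05, edgeR). As DESeq2 called only 1 gene of this list lower in PANC-1, it did not call both H19 and MEG3.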
